A study of Mus musculus with 10 samples.

Results

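The genes described here are 10 genes of the contractile cytoskeleton and of the YAP response, read out in fibroblasts with a high or a low load of a mitochondrial DNA mutation. They were taken by name from the 26401 genes of the count table: the contractile genes Acta2, Tagln, Cnn1, Myl9, Tpm1, Tpm2 and Actg2, and the YAP-responsive genes Ccn1, Ccn2 and Ankrd1. All 10 were found in the table, and 9 passed the filter on low counts. Actg2 did not. The samples were 10 populations of immortalized mouse embryonic fibroblasts, all with a C-to-T change at position 5024 of mitochondrial DNA, all listed under the strain C57Bl/6N. They were grown without further treatment in high-glucose DMEM with 10% serum and 50 µg/ml uridine. High heteroplasmy, a large share of mutant mitochondrial genomes, is the label of 5 populations (high 1 to high 5), and low heteroplasmy that of the other 5 (low 1 to low 5). Each library carries a clone number of its own, so that a group is a set of different clones with 1 library from each. The sources used here do not say how the cells were immortalized or what the mutant share of each clone was.

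As background, Acta2 and Actg2 encode the smooth muscle actins, Tagln and Cnn1 encode the actin-binding proteins transgelin and calponin, Myl9 encodes a regulatory light chain of myosin, and Tpm1 and Tpm2 encode tropomyosins that lie along actin filaments. Many of these genes are known targets of SRF and its actin-sensing cofactors of the MRTF family, and they mark fibroblasts that take on a contractile, myofibroblast-like state. YAP and TAZ are coactivators held back by the kinases of the Hippo pathway, and in the nucleus they act through the TEAD transcription factors. Ccn1 (formerly Cyr61) and Ccn2 (formerly Ctgf) encode secreted matricellular proteins and Ankrd1 an ankyrin repeat protein, and all are common readouts of YAP activity in cells that spread or are stretched.

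Library totals ran from 17318372 to 28208576 counts on genes, so that 1 count was worth 0.0333 to 0.057 CPM (the count relative to library size, with TMM scaling between libraries). The libraries low 2 and low 3 stood apart with 40940 and 8017 CPM of the ribosomal RNA-like transcript Gm42418. The others had 744.7 to 1616 CPM, and results are therefore also given without low 2 and low 3. With fewer low libraries that edgeR fit called 56 of 13521 genes tested, where the fit of all libraries called 630 of 12964. Whether a call lost there came from the fewer libraries or from these 2 was not tested. Of the fibroblast markers, Vim (4021 to 12210 CPM) and Col1a1 (3310 to 7321 CPM) were abundant in every library. Col1a2 (1.977 to 886.3 CPM), Col3a1 (9.617 to 218.8 CPM), Pdgfra (0.2662 to 50.9 CPM) and Pdgfrb (4.825 to 128.1 CPM) varied widely between clones. Dcn and Lum stayed at or below 3.531 CPM, and Thy1 reached more than 1 CPM in high 1, high 2 and high 3 alone. Dcn was lower in the high group by DESeq2 and limma-voom but not by edgeR (log2 fold change -3.59, adjusted p = 0.00567, 0.0236 and 0.0534). Of the pericyte markers Rgs5 and Abcc9 had 0 counts, Cspg4 stood at 49.63 to 238.8 CPM and Notch3 at 3.561 to 37.31 CPM. Of the smooth muscle markers Myocd had 0 counts in all libraries, Myh11 did not exceed 1.372 CPM, and Smtn and Des were higher in the high group in DESeq2 but not in edgeR (Smtn 0.69 and Des 1.75 in log2 fold change, edgeR adjusted p = 0.0849 and 0.0544, DESeq2 adjusted p = 0.0282 and 0.00338). Of the 4 endothelial markers Cdh5 was at 0 and the sum of all was 0.3027 to 1.423 CPM in the high and 0.3988 to 1.715 CPM in the low libraries. The leukocyte marker Ptprc was at 0 as well, while Cd68, a marker of macrophages that other cells express too, stood at 11.71 to 89.97 CPM, with a mean of 37.27 CPM in high clones against 18.01 CPM in low clones (edgeR adjusted p = 0.237). The 5 epithelial markers summed to 112.9 to 509.6 CPM in the high and 453.5 to 671.7 CPM in the low libraries, with a rise of Krt18 in edgeR (log2 fold change 7.95, adjusted p = 0.00895; 0.108 by limma-voom). The other 3 tested markers had lower means in the high group without passing in edgeR and passed in DESeq2: Krt19 at -1.39, Krt8 at -1.36 and Cdh1 at -2.73 (edgeR adjusted p = 0.0509, 0.0926 and 0.0926; DESeq2 adjusted p = 0.00217, 0.0289 and 0.027). The part of these markers in the results below was not tested.

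The 10 genes differed widely in level. Per kb of exon (GENCODE M21), Ccn1 was the most abundant with 385 ± 208 CPM per kb over the 10 libraries (SD), followed by Tpm1 with 119 ± 50.5 and Tpm2 with 91.1 ± 19. Ankrd1 (24.1 ± 20.7) and Ccn2 (13.4 ± 13.5) were in the middle. Myl9 (5.48 ± 6.24), Tagln (2.90 ± 3.92), Acta2 (1.83 ± 2.59) and Cnn1 (1.42 ± 1.40) lay below the median of all tested genes, which was 6.852 CPM per kb, and Actg2 was at 0.053 ± 0.0531. Ccn1 exceeded Tpm1 in all 10 libraries, and Tpm2 exceeded Ankrd1 in all 10. Cnn1 exceeded Actg2 in all 10 as well. For the other neighbours in this order, from Tpm1 over Tpm2 to Acta2 over Cnn1, the order changed between libraries, since a gene exceeded the next in 4 to 8 of the 10. These fibroblasts thus had the tropomyosins and Ccn1 at levels above 95% of tested genes (percentiles 96.9, 95.5 and 99.2 for Tpm1, Tpm2 and Ccn1), and the smooth muscle genes Acta2, Cnn1 and Tagln at percentiles 23.2, 19.4 and 30.8.

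**Figure D1:**
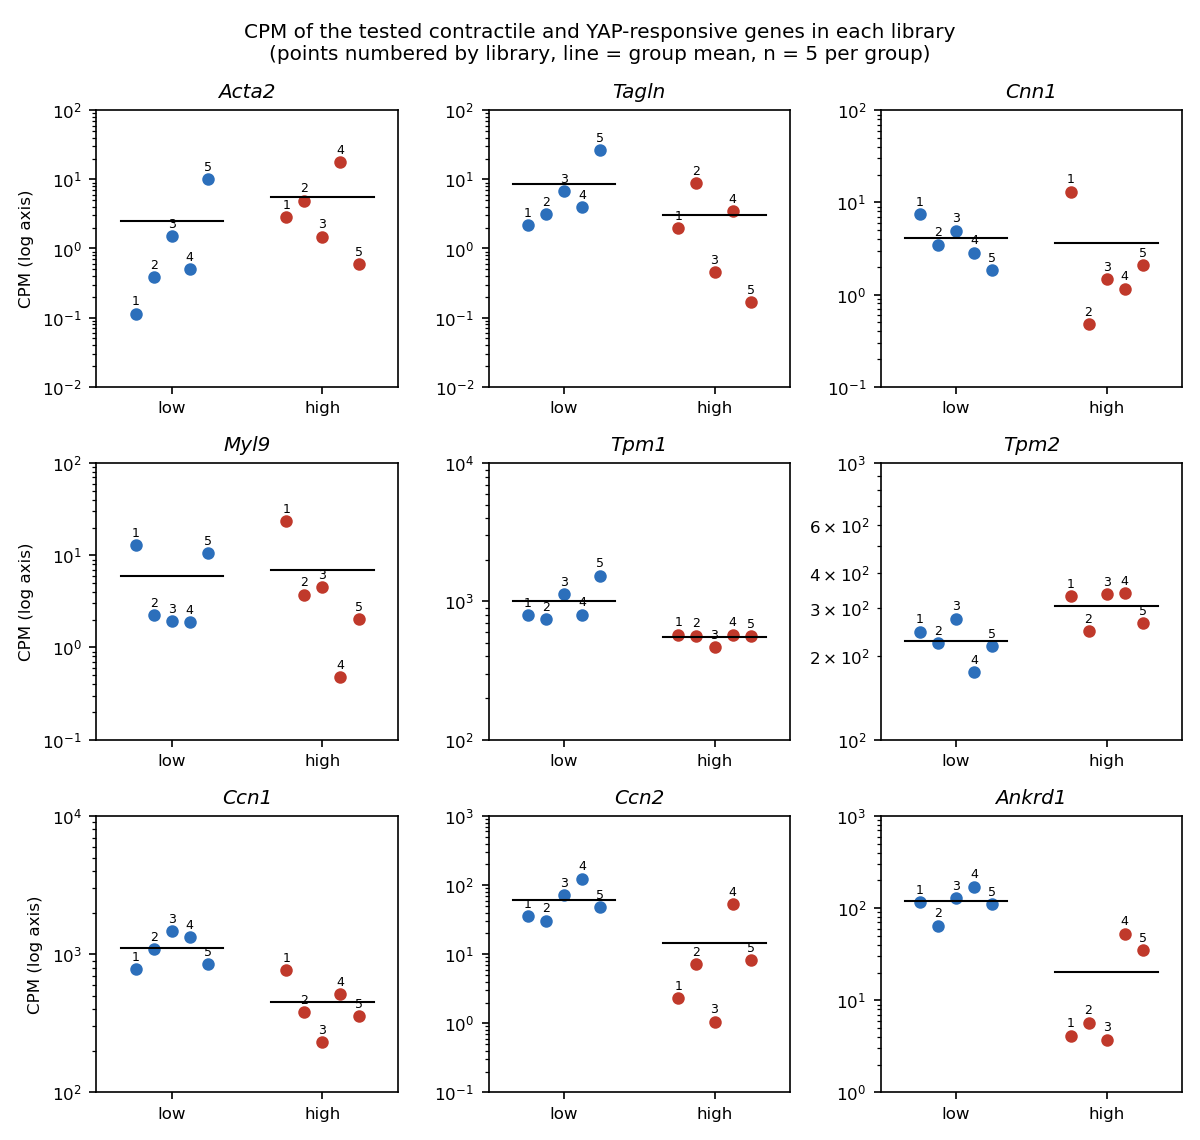
CPM on a log axis of the 9 tested genes in each library, low in blue and high in red, with points numbered by library and a line at the group mean (n = 5 each). The groups do not overlap for Tpm1, Ccn1 and Ankrd1, and the levels of Acta2, Tagln, Cnn1 and Myl9 spread over 27.61-fold to 159.7-fold between libraries.

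High and low clones were compared to see which of these genes differ with the load of the mutation. Ccn1 and Tpm1 fell in the high group, and no member rose. Ankrd1 and Ccn2 had lower means in the high group without passing the edgeR test, and the smooth muscle genes Acta2, Tagln, Cnn1 and Myl9 overlapped between groups with a wide spread between clones. Of the 9 tested members 2 were called, where 4.86% of all 12964 genes tested were called (two-sided quasi-likelihood test of edgeR at 0.05 after Benjamini-Hochberg adjustment). Both fell, as did 2.87% of tested genes, and 1.99% rose. DESeq2 called 3 members with 11.4% of genes, and limma-voom 4 members with 5.3% of genes. The groups did not overlap for 3 of the 9, all lower in the high group, where this held for 7.17% of tested genes in either direction and for 4.17% in the lower direction. In RNA from bulk cultures, fewer cells that express a gene and less RNA per cell cannot be told apart.

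Among the YAP-responsive genes, Ccn1 (ENSMUSG00000028195, chr3:145646976-145649981 in GRCm38, minus strand) stood at 768.1, 380.6, 231.6, 512.2 and 357.8 CPM in high 1 to high 5. In low 1 to low 5 it stood at 782.8, 1093, 1469, 1332 and 846.6 CPM. Every high library lay below every low library, although high 1 and low 1 nearly met. The means were 450.1 ± 203.8 CPM in the high and 1105 ± 297.9 CPM in the low group (SD over 5 libraries), and the log2 fold change was -1.30 (SE 0.31, edgeR adjusted p = 0.036). The direction was kept in every fit, but the call was lost in edgeR without high 2 (adjusted p = 0.0759), high 3 (0.0674), high 5 (0.0737), low 1 (0.0531), low 2 (0.0757), low 3 (0.0819), low 4 (0.0794) or low 5 (0.0503), and without both low 2 and low 3 (-1.12, 0.172). Genes of chromosome 3 as a whole also differed between clones. Their median deviation in log2 CPM was 0.45 in high 1, -0.32 in high 2 and -0.36 in high 4, and between -0.04 and 0.15 in the other libraries. With that deviation taken out per chromosome and library, Ccn1 was at -1.23 (adjusted p = 0.057).

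Ankrd1 (ENSMUSG00000024803, chr19:36111961-36120099, minus strand) stood at 4.115, 5.717, 3.745, 52.74 and 35.14 CPM in high 1 to high 5. In low 1 to low 5 it stood at 116.4, 64.49, 129.6, 171.3 and 111.3 CPM. The groups did not overlap, and the high group itself split, with high 4 and high 5 many times above high 1, high 2 and high 3. The means were 20.3 ± 22.5 and 118.6 ± 38.4 CPM, a log2 fold change of -2.54 (SE 0.74) that did not pass in edgeR (adjusted p = 0.0771). DESeq2 (adjusted p = 0.0143) and limma-voom (0.0201) called it, and so did edgeR without high 4 (-3.27, adjusted p = 0.0309). The other edgeR fits that left out 1 library did not call Ankrd1 (adjusted p up to 0.141). It was also not called without both low 2 and low 3 (-2.69, 0.185) or with the chromosome deviation taken out (-2.49, 0.14).

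Ccn2 (ENSMUSG00000019997, chr10:24595442-24598683, plus strand) stood at 2.337, 7.179, 1.059, 53.69 and 8.286 CPM in high 1 to high 5. In low 1 to low 5 it stood at 35.49, 30.75, 70.92, 124.7 and 47.79 CPM. High 4 reached into the range of the low group and the other 4 high libraries lay below it. The log2 fold change was -2.09 (SE 0.90, edgeR adjusted p = 0.208). Without high 4 it was -3.71 (adjusted p = 0.0177), so that 1 library decided the call, and limma-voom called it with all libraries (-3.15, adjusted p = 0.0436). Without both low 2 and low 3 the log2 fold change was -2.25 (edgeR adjusted p = 0.346). Genes of chromosome 10 were on average 0.28 higher in log2 CPM in the high than in the low group, the opposite direction to Ccn2. With the chromosome deviation taken out Ccn2 was at -2.51 and was still not called (edgeR adjusted p = 0.178). Of the other genes at the locus, Gm15270 on the other strand shares 665 exon bases with Ccn2 and had 98 counts in all libraries against 8400 for Ccn2. Of the 50-base windows of Ccn2 17.2% lie on the other strand in Gm15270, and how reads there were counted is not stated in the sources used here.

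Among the contractile genes the tropomyosins were measured best. Tpm1 (ENSMUSG00000032366, chr9:67022590-67049406, minus strand) stood at 574.3, 564.5, 466.5, 574.0 and 560.2 CPM in high 1 to high 5. In low 1 to low 5 it stood at 795.3, 742.6, 1123, 801.8 and 1534 CPM. All high libraries lay below all low libraries, and the high group was tight, with an SD of 0.13 in log2 CPM against 0.44 in the low group. The means were 547.9 ± 45.9 and 999.3 ± 334.4 CPM, a log2 fold change of -0.87 (SE 0.21, edgeR adjusted p = 0.0378). This call was also near the threshold. It held without high 1 and was lost in edgeR without high 2 (adjusted p = 0.0717), high 3 (0.0887), high 4 (0.0509), high 5 (0.0656), low 1 (0.0549), low 2 (0.0520), low 3 (0.0844), low 4 (0.0562) or low 5 (0.0573), and without both low 2 and low 3 (-0.91, 0.116). Without low 5, the library with the most Tpm1, the log2 fold change was -0.66.

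Tpm2, the other tropomyosin among the members, went the other way without passing. It stood at 330.1, 246.8, 336.5, 337.7 and 263.8 CPM in high 1 to high 5 and at 245.6, 223.1, 273.6, 175.0 and 217.5 CPM in low 1 to low 5. The ranges overlapped, and the log2 fold change was 0.42 (SE 0.16, edgeR adjusted p = 0.145). The ratio of Tpm1 to Tpm2 per kb was 0.6217 to 1.026 in the high libraries and 1.453 to 3.163 in the low libraries. That ratio was examined after the values of both genes were known and is given without a test.

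Acta2 (ENSMUSG00000035783, chr19:34241090-34255590, minus strand), the actin by which myofibroblasts are usually recognised, had a low level in most clones. It stood at 2.845, 4.901, 1.475, 17.70 and 0.599 CPM in high 1 to high 5 and at 0.1139, 0.3803, 1.501, 0.5021 and 10.12 CPM in low 1 to low 5, with only 2 counts in low 1. High 4 and low 5 were far above the other libraries, and the groups overlapped. The log2 fold change of 1.13 (SE 1.16, edgeR adjusted p = 0.633) was -0.041 without high 4 and 3.12 without low 5 (adjusted p = 0.989 and 0.13).

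Tagln stood at 1.981, 8.899, 0.454, 3.500 and 0.1664 CPM in high 1 to high 5. In low 1 to low 5 it stood at 2.165, 3.151, 6.754, 3.933 and 26.56 CPM. Low 5, which also had the most Tpm1 and the most Acta2 of the low libraries, had the most Tagln. The log2 fold change was -1.51 (SE 0.99, edgeR adjusted p = 0.42). Without low 5 it was -0.42 (adjusted p = 0.854), and with 1 library left out it ranged from -2.49 to -0.42. Tagln is a gene whose count is uncertain: 58.3% of the 50-base windows of its transcripts also lie, on the other strand, in an annotated gene, mainly Gm48529, and whether the counting used strand is not stated in the sources used here.

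Cnn1 and Myl9 were highest in the same library, high 1. Cnn1 stood at 13.06 CPM there and at 0.4729 to 2.096 CPM in the other high libraries, against 1.851 to 7.463 CPM in the low group (log2 fold change -0.18, SE 0.79, edgeR adjusted p = 0.931). Myl9 stood at 23.47 CPM in high 1 and at 0.4773 to 4.540 CPM in the other high libraries, against 1.883 to 12.82 CPM in the low group (0.22, SE 0.93, adjusted p = 0.929). Without high 1, Cnn1 was at -1.65 (adjusted p = 0.0848) and Myl9 at -1.12 (0.42), still short of the threshold. Actg2, the enteric smooth muscle actin, had 3, 4, 0, 6 and 0 counts in high 1 to high 5 and 1, 2, 0, 1 and 1 in low 1 to low 5, too few to compare. A count of 0 allowed up to 0.113, 0.0998 and 0.141 CPM in high 3, high 5 and low 3 (3 counts, counting error only).

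The spread between clones differed widely among the members. The SD of log2 CPM within groups was 1.98 for Acta2, 1.76 for Tagln, 1.68 for Myl9, 1.60 for Ccn2, 1.33 for Ankrd1 and 1.30 for Cnn1, all at or above percentile 94.5 of the tested genes. It was 0.53 for Ccn1, 0.33 for Tpm1 and 0.23 for Tpm2, where the median of all tested genes was 0.37. The 2 called members are thus among the 3 members with the smallest spread, and Ankrd1 and Ccn2 had larger fold changes with larger errors.

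Of the members, 7 of the 10 had a window of 250 bases before a RefSeq start (GRCm38.p6), and these were searched for the TEAD motif GGAATG or its reverse complement CATTCC and for a CArG box, the motif bound by SRF. RefSeq and GENCODE place some starts differently. GENCODE M21 has all 250 bases of the Ankrd1 window, 217 of the Acta2 window, 193 of the Tpm1 window, 106 of the Tpm2 window, 44 of the Myl9 window and 37 of the Cnn1 window in exons of the same gene. Only the Ccn1 window has none. Shown are the bases before all of these exons for Ccn1, a called member, at chr3:145649986-145650235 (minus strand, 250 bases). Myl9, the 1 of the 7 searched members with a CArG box in its window, is shown likewise at chr2:156775214-156775419 (plus strand, 206 bases). Tagln, Actg2 and Ccn2 had no window and were not searched. Capitals mark the TEAD motif in Ccn1 and the CArG box in Myl9.
Ccn1: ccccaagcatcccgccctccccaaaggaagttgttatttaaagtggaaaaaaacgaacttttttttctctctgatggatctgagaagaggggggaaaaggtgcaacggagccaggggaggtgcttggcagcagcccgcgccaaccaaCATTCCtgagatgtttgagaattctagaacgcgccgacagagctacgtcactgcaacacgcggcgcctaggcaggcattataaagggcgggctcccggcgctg
Myl9: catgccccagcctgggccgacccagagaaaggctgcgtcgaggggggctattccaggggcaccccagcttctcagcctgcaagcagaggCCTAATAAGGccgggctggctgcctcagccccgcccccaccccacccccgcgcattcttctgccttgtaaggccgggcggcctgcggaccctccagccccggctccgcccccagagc
The TEAD motif stood 103 bases before the RefSeq start in Ccn1, 210 and 123 bases before it in Ankrd1, 56 bases before it in Tpm1 and 146 bases before it in Acta2. In Ankrd1, Tpm1 and Acta2 these letters lie inside an exon of the gene by GENCODE M21, so that their place before the start holds for RefSeq alone. The motif was not found in the windows of Cnn1, Myl9 and Tpm2. Of all 32851 windows of this length 12.6% held the TEAD motif on either strand. A CArG box, searched on both strands with no mismatch, stood 161 bases before the RefSeq start of Myl9 and was held by 1.47% of all windows. The motifs did not overlap in these windows, and a match describes letters only.

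The smooth muscle genes have paralogs that nonmuscle cells use, and several of these were far more abundant. Per kb of exon over the 10 libraries, Actb stood at 1632 and Actg1 at 152.2 CPM against 1.828 for Acta2. Tagln2 stood at 221.2 CPM per kb against 2.896 for Tagln, Cnn2 and Cnn3 at 138.6 and 98.21 against 1.419 for Cnn1, and Myl12a and Myl12b at 279.7 and 75.20 against 5.484 for Myl9. Other paralogs were weaker: Tagln3 stood at 0.5025, Acta1 at 0.1129, Ankrd2 at 0.1121 and Ankrd23 at 0.08035 CPM per kb, and Actc1 had 0 counts. Of the 18 paralogs 13 were tested, 1 fell and 0 rose in edgeR (6 had an unadjusted p under 0.05, as did 21.6% of all tested genes; DESeq2 called 2 rises and 3 falls, limma-voom 1 gene). Their median log2 fold change was -0.27, beside 0.02 over all genes tested. The 1 that fell was Tpm4, a cytoplasmic tropomyosin. It stood at 304.0, 430.9, 415.1, 539.1 and 407.4 CPM in high 1 to high 5 and at 787.4, 833.2, 899.1, 855.0 and 806.8 CPM in low 1 to low 5. The groups were well apart, with a log2 fold change of -0.996 (SE 0.16, edgeR adjusted p = 0.0101), and the call held with any 1 library left out but not without both low 2 and low 3 (-0.94, adjusted p = 0.0689). Tpm4 lies on chromosome 8, and with the deviation of each chromosome taken out per library it was at -0.43 (adjusted p = 0.139). The tropomyosin Tpm3 was at -0.16 (SE 0.21) and the actins Actb at -0.29 (SE 0.17) and Actg1 at 0.56 (SE 0.24), none past the threshold. Of the CCN family beside Ccn1 and Ccn2, Ccn3 was at 1.09 (SE 0.37), Ccn4 at -1.09 (SE 0.30) and Ccn5 at 2.11 (SE 0.67), with adjusted p of 0.118, 0.062 and 0.0979. Ccn6 had 0 counts.

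**Figure D2:**
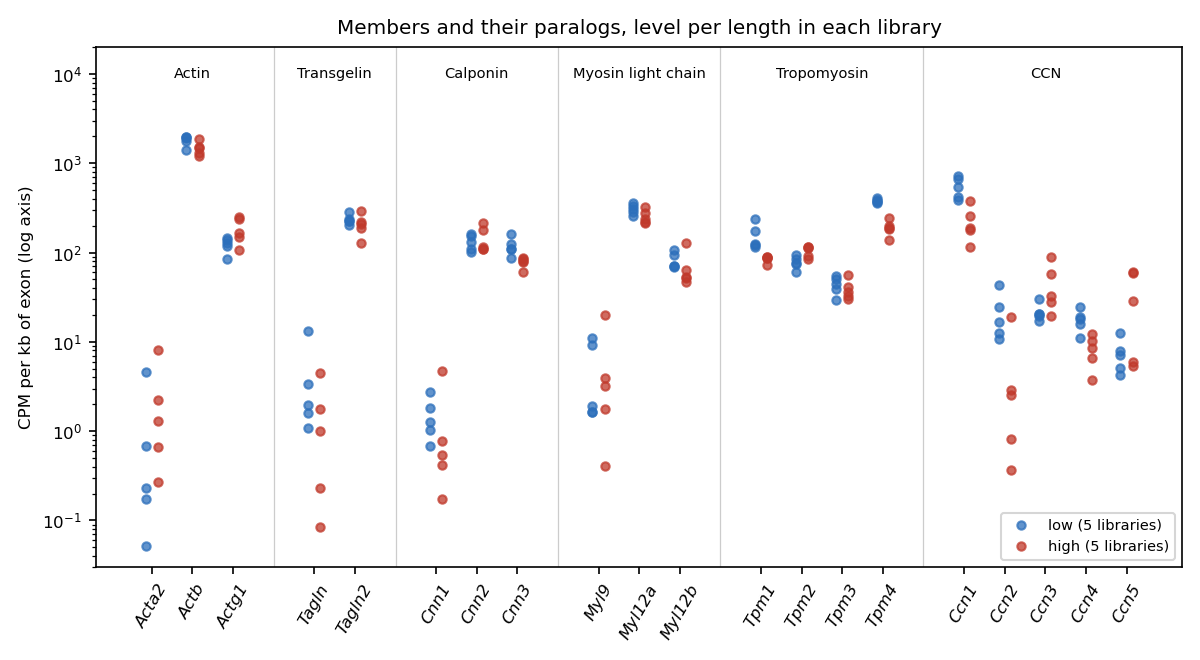
CPM per kb of exon on a log axis in each library (low blue, high red) for members and paralogs, by protein family. The smooth muscle genes Acta2, Tagln, Cnn1 and Myl9 lie below the plotted paralogs in every library (the weaker Tagln3, Acta1 and Actc1 are not plotted), while Tpm1 and Tpm2 lie among the other tropomyosins.

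**Figure D3:**
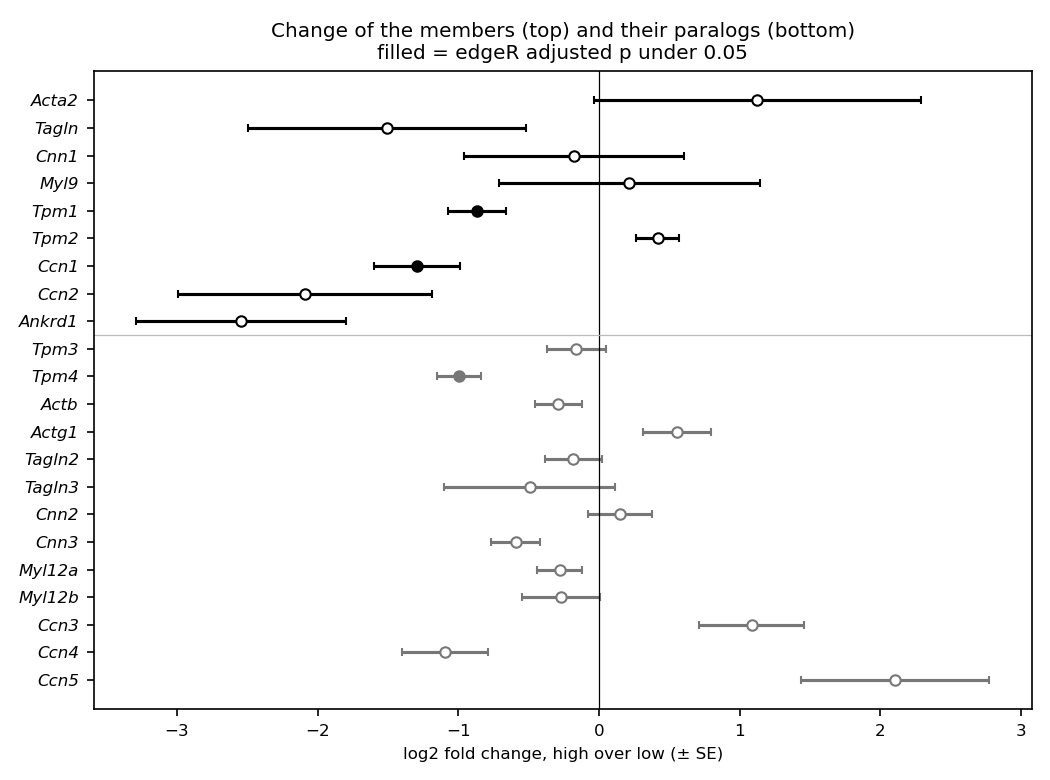
Log2 fold change of high over low with its SE for the 9 tested members (top, black) and 13 tested paralogs (bottom, grey). Filled points passed the edgeR threshold: Tpm1, Ccn1 and Tpm4, at -0.87, -1.30 and -0.996.

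Of 19 genes of the Hippo pathway and the TEAD factors, all were tested, 1 rose and 0 fell in edgeR, with a median log2 fold change of 0.19. An unadjusted p under 0.05 in edgeR was seen for 3 of them. DESeq2 called 1 rise and 0 falls, and limma-voom 0. Of all genes tested 4.86% were called by edgeR, 11.4% by DESeq2 and 5.3% by limma-voom, and 21.6% had an unadjusted p under 0.05. Yap1 stood at 167.4 CPM in the high and 188.7 CPM in the low group (mean; log2 fold change -0.17, SE 0.13, edgeR adjusted p = 0.468), and Wwtr1, which encodes TAZ, was at 0.05 (SE 0.25). The kinase genes Lats1 and Lats2 were at 0.24 and -0.31, and Tead1, Tead2, Tead3 and Tead4 at -0.37, -0.06, -0.01 and 0.42, none past the threshold. Of the other 10 genes, from Amotl1 at -0.54 to Vgll3 at 0.62, none passed in edgeR. The gene that rose was Vgll4, which encodes a cofactor that competes with YAP for TEAD. It stood at 90.58, 81.55, 57.81, 44.23 and 72.31 CPM in high 1 to high 5 and at 39.31, 44.66, 44.37, 39.37 and 32.77 CPM in low 1 to low 5. High 4 lay within the low range, and the log2 fold change was 0.79 (SE 0.19, edgeR adjusted p = 0.0415). The Vgll4 call held only without high 4 (adjusted p = 0.0158) among the 10 fits that left out 1 library, where it otherwise ranged up to 0.09, and with the chromosome deviation taken out Vgll4, on chromosome 6, was at 0.46 (0.131). Without both low 2 and low 3 it was at 0.92 (0.131), and limma-voom (adjusted p = 0.0557) did not call it.

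Of 17 other YAP target genes 14 were tested and 0 passed in edgeR, where 4.86% of all genes tested did. An unadjusted p under 0.05 was seen for 3, beside 21.6% of all genes tested. Of the 14 genes DESeq2 called 1 rise and 0 falls, and limma-voom 0, beside 11.4% and 5.3% of all genes tested. The median log2 fold change of the 14 genes was 0.07. The genes with the highest mean CPM, not corrected for length, were Myof at 0.17 (SE 0.21), the receptor tyrosine kinase gene Axl at -0.50 (SE 0.18) and Ccdc80 at 0.67 (SE 0.38). The 3 YAP-responsive members, of which 1 passed in edgeR, had a median of -2.09. Members and lists were chosen with earlier results of these data known, so the medians are given without a test.

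Of 26 actomyosin and SRF-linked genes 25 were tested and 0 passed in edgeR, where 4.86% of all genes tested did. An unadjusted p under 0.05 was seen for 6, beside 21.6% of all genes tested. Of the 25 genes DESeq2 called 1 rise and 1 fall, and limma-voom 0, beside 11.4% and 5.3% of all genes tested. The median log2 fold change of the 25 genes was 0.17. Those with the highest mean CPM, again not corrected for length, were the nonmuscle myosin heavy chain Myh9 at 0.03 (SE 0.19), the light chain Myl6 at 0.26 (SE 0.22) and the filamin Flna at 0.18 (SE 0.37). Srf was at 0.17 (SE 0.17). Mylk, the kinase of the myosin light chain, was chosen for naming after its values were seen. It stood at 76.87, 15.17, 5.486, 4.693 and 11.51 CPM in high 1 to high 5 and at 0.9235 to 4.671 CPM in the low group. The groups did not overlap but nearly met (log2 fold change 3.11, SE 0.81, edgeR adjusted p = 0.0519). Mylk was the 1 rise of the list called by DESeq2 (adjusted p = 0.000214), and limma-voom did not call it (0.12). High 1, the library with the most Cnn1 and Myl9, had the most Mylk.

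Of 12 TGF-beta ligands, receptors and targets 10 were tested, 2 fell and 0 rose in edgeR, where 2.87% of all genes tested fell and 1.99% rose. Of the 10, 2 had an unadjusted p under 0.05, beside 21.6% of all genes tested. DESeq2 also called 2 falls, and limma-voom 2 genes, beside 11.4% and 5.3% of all genes tested. The median log2 fold change of the list was 0.07. TGF-beta is the signal best known to switch on Acta2 and Tagln in fibroblasts. Tgfbr2, which encodes its type II receptor, stood at 103.1, 64.61, 62.76, 53.45 and 95.44 CPM in high 1 to high 5 and at 150.8, 170.7, 212.2, 216.7 and 260.1 CPM in low 1 to low 5. All high libraries lay below all low libraries, with a log2 fold change of -1.41 (SE 0.22, edgeR adjusted p = 0.00964). The call held with any 1 library left out and with the chromosome deviation taken out (-1.30, adjusted p = 0.0147). It was lost without both low 2 and low 3 (adjusted p = 0.062). The log2 fold change there was -1.45, and that fit called 56 genes in all. Skil, a repressor of SMAD proteins and itself a TGF-beta target, fell by 0.89 on the log2 scale (SE 0.21, edgeR adjusted p = 0.0368), from 37.51 to 58.02 CPM in the low to 17.58 to 34.69 CPM in the high libraries. The Skil call held without high 3 and without low 5 and was lost without any of the other 8, with adjusted p of at most 0.0944. It was also lost with the chromosome deviation taken out (-0.77, adjusted p = 0.124) and without both low 2 and low 3 (-0.70, 0.215). The receptor genes Tgfbr1 and Tgfbr3 were at 0.22 and 0.20, and Fn1 and Ltbp1 at 0.49 and -0.07, none past the threshold.

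**Figure D4:**
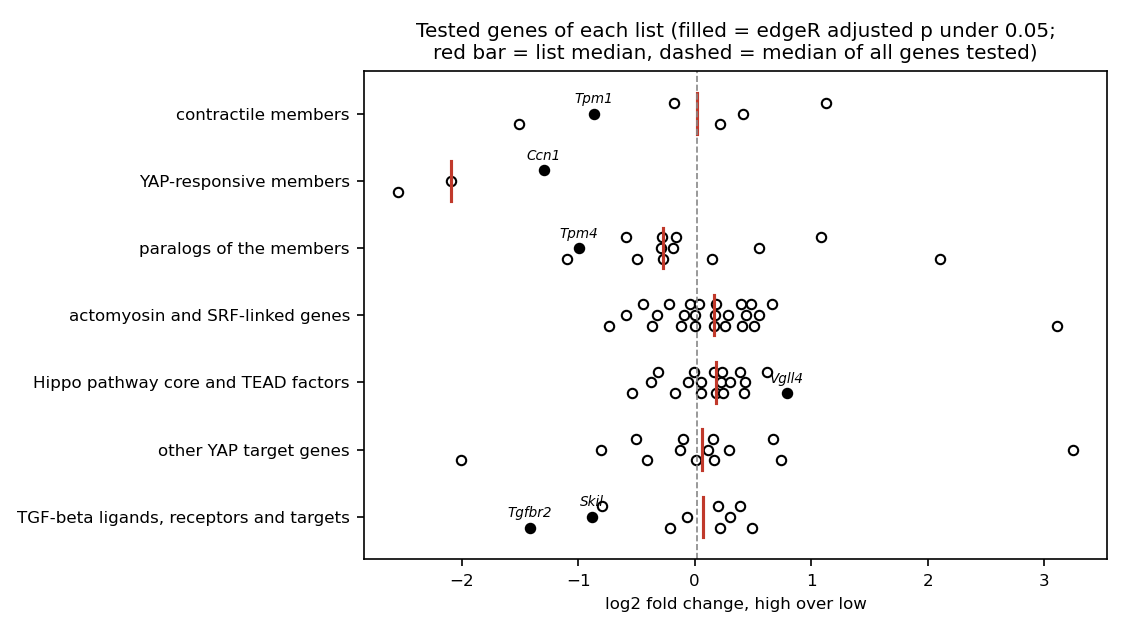
Log2 fold change of high over low for each tested gene of 7 lists, with filled points past the edgeR threshold, a red bar at the list median and a dashed line at the median of all genes tested (0.02). The YAP-responsive members have a median of -2.09, and the other lists have medians of -0.27 to 0.19. Members and lists were chosen with earlier results of these data known.

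How the members vary together was read from the 45 pairs of members over the 10 libraries (log2 CPM, prior count 2). Ccn2 and Ankrd1 moved together: Pearson r was 0.94 (permutation p = 3e-05, adjusted p = 0.00135 over 45 pairs) and Spearman rho 0.92 (permutation p = 0.00051, adjusted p = 0.0194). Without high 1 and high 3, the libraries farthest from the median of Ccn2, r was 0.85, and with the group means taken out it was 0.86. This was the 1 pair of 45 past the threshold by Pearson r, and 3 passed by Spearman rho, among them Ccn1 with Ankrd1 (rho 0.85, permutation p = 0.00302, adjusted p = 0.0453; r 0.71, permutation p = 0.0236, adjusted p = 0.177) and Tpm1 with Ccn1 (rho 0.90, permutation p = 0.00086, adjusted p = 0.0194; r 0.71, permutation p = 0.0212, adjusted p = 0.177). With the group means taken out, r was 0.13 for Ccn1 with Ankrd1 and 0.12 for Tpm1 with Ccn1. Without the 2 libraries farthest from the median of the first gene, r was 0.65 and 0.89.

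Ccn1 and Ccn2 had r = 0.75 (permutation p = 0.0138, adjusted p = 0.177) and rho = 0.76 (permutation p = 0.0149, adjusted p = 0.134). Without high 3 and high 5 r was 0.53. With 1 library left out r was 0.59 to 0.89, lowest without high 3 (permutation p = 0.0918). With the group means taken out r was 0.37. High 1 had 768.1 CPM of Ccn1 with 2.337 CPM of Ccn2, and the highest ratio of Ccn1 to Ccn2 per kb, 465.7, where the ratio was 13.52 to 309.8 in the other libraries. Acta2 had no relation with Ccn2 that these libraries could show (r = -0.06, permutation p = 0.878, adjusted p = 0.971; rho = -0.01, permutation p = 1, adjusted p = 1; r = -0.17 without high 4 and low 1), and with the group means taken out r was 0.42.

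Acta2 and Tagln had r = 0.46 (permutation p = 0.185, adjusted p = 0.462) and rho = 0.46 (permutation p = 0.192, adjusted p = 0.493) over all libraries, and r = 0.59 without high 4 and low 1. With the group means taken out r was 0.86. At a given level of Acta2 the low libraries had more Tagln: the ratio of Tagln to Acta2 per kb was 0.7693, 2.006, 0.3399, 0.2184 and 0.3068 in high 1 to high 5 and 20.99, 9.153, 4.971, 8.653 and 2.898 in low 1 to low 5. The groups did not overlap in this ratio, which was examined after its values were seen and is given without a test. The uncertainty of the Tagln count given above holds for it as well. Its largest values also rest on few counts of Acta2, with 2 in low 1, 7 in low 2 and 12 in low 4.

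**Figure D5:**
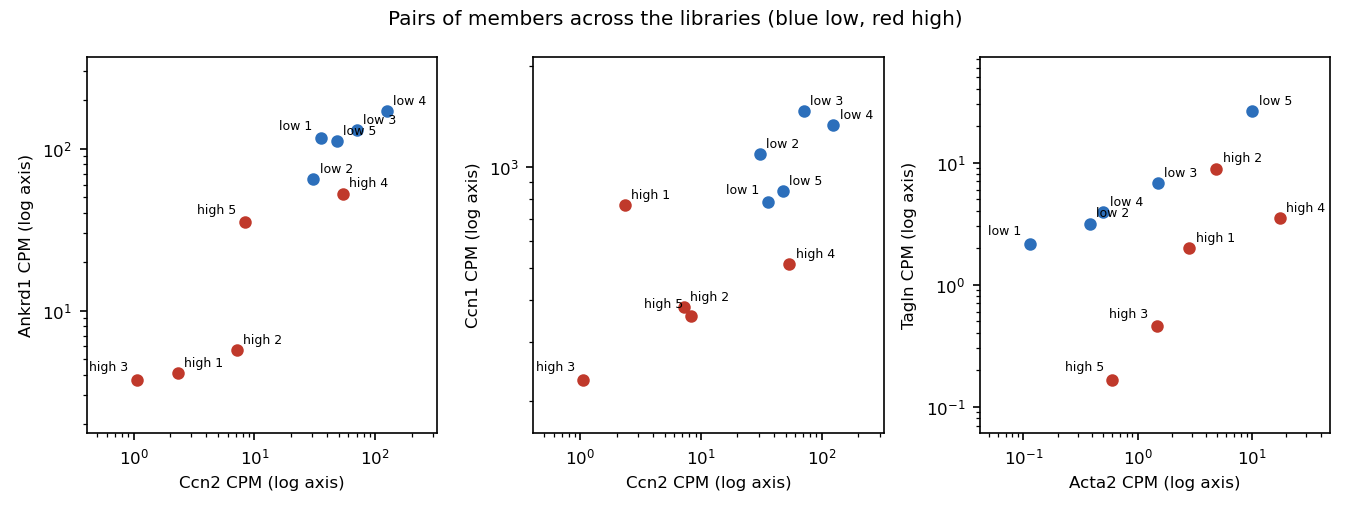
CPM of pairs of members in each library on log axes, low in blue and high in red: Ankrd1 and Ccn1 against Ccn2, and Tagln against Acta2. Ankrd1 follows Ccn2 through both groups (r = 0.94), and in the last panel the low libraries have more Tagln relative to Acta2 than the high libraries.

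The genes whose pattern over the 10 libraries was most like that of Ccn2, among those outside the members with a mean of at least 5 CPM, were Etv4 (Pearson r 0.97), Itga6 (0.96), Ptprj (0.95) and Ccdc120 (0.94). Ankrd1 ranked 8 among all tested genes by this measure, and Ccn1 ranked 551. For Acta2 they were Cdr2 (0.91), Kctd18 (0.89), Zfp825 (0.88) and Mad2l1 (0.85), and Tagln ranked 849. These values are the highest among many genes and are given as a description over 10 libraries, with no test.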

How the data were processed

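Polyadenylated RNA of 10 clones was read as 50 bp pairs from libraries of a strand-specific kit, per the labels' protocols. The deposited table holds raw counts per Ensembl gene, 1 column per library, and a second deposited table holds the same counts as a signal, each library divided by 1 size factor by the authors, which was not tested on. STAR 2.7.8a, DESeq2 1.36.0, R 4.2.1 and GRCm38 are named in the submitters' processing notes. How reads were counted, whether by strand and on which annotation is not stated in the sources used here. Genes were named with GENCODE M21.

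The raw counts were fitted with edgeR 4.0.16 in R 4.3.3: default filter by group, TMM scaling, robust quasi-likelihood F-test with the group as the only term, Benjamini-Hochberg adjustment over 12964 genes, threshold 0.05. The SE is the log2 fold change over the root of F. CPM use the TMM factors, and levels per kb use the exon union. Correlations used 100000 permutations (20000 with a library left out). Alternatives were DESeq2 1.42.0, limma-voom (limma 3.58.1), RLE and upper-quartile scaling, no filter, 1 CPM in 5 libraries, the replicate number as a block, each library left out, low 2 and low 3 left out, and an offset per chromosome and library. P-values of the fits set the difference between groups against the spread between clones, and those of correlations come from permuted libraries. No pair of libraries agreed within counting noise (chi-square per degree of freedom at least 90.1). The code was tested on simulated counts. Figures were drawn with matplotlib 3.10.9.

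The rule for named genes took the members, their paralogs, called list genes, Hippo and TEAD genes where wanted, the 3 genes of a list with the highest CPM and the 4 genes most like Acta2 and Ccn2. The members and lists were chosen with earlier results of these data known. Mylk, Srf, Tgfbr1, Tgfbr3 and the ratios of 2 genes were added after their values were seen.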

Additional observations from a re-analysis of the deposited data

Results flagged for a closer look

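The level of each of 13 genes (the 9 tested members and the 4 called genes of the lists) was examined in both groups for a single library far from the others, 26 groups in all. In the high group, Tpm1 in high 3 (466.5 CPM, against 560.2 to 574.3 CPM in the other 4) lay at a gap of 0.88 of the whole range of the group in log2 CPM, above the limit of 0.71 for 5 samples. Chance alone gives about 1 in 20 groups. Without high 3 the log2 fold change of Tpm1 was -0.81 (edgeR adjusted p = 0.0887).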

How the results depend on the processing

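Tpm1 and Ccn1 kept their direction in all 19 alternatives, but both calls lie near the threshold. The number of called members was 2, and it was 1 with the replicate block, 4 by limma-voom, and 0 with the offset per chromosome and without low 2 and low 3. It was 0 to 3 with 1 library left out. Over all genes tested, 630 were called in the main fit, 687 by limma-voom, 1475 by DESeq2 and 164 with the offset. Without low 2 and low 3 the number over all genes was 56, and with 1 library left out it was 232 to 821. Tpm1 had a log2 fold change of -0.81 with the replicate block (edgeR adjusted p = 0.0661), -0.72 with the offset per chromosome (0.0847), -0.91 without low 2 and low 3 (0.116), and -0.94 to -0.66 with 1 library left out. Ccn1 was at -1.37 with the replicate block (0.0715), -1.23 with the offset per chromosome (0.057), -1.12 without low 2 and low 3 (0.172), and -1.57 to -1.13 with 1 library left out. The number of called genes of the 5 pathway lists was 4, and it was 11 by DESeq2. It was 1 with the offset per chromosome, 0 without low 2 and low 3, and 2 to 5 with 1 library left out. These lists held 13 (paralogs), 25 (actomyosin), 19 (Hippo), 14 (other YAP targets) and 10 (TGF-beta) tested genes. Of all genes tested edgeR called 4.86% and DESeq2 11.4%. Myl9 turned from 0.22 to -0.21 with the replicate block, -0.32 by limma-voom and -0.29 without low 2 and low 3, and ranged from -1.12 to 0.72 with 1 library left out. With 1 library left out Acta2 ranged from -0.041 to 3.12 and Cnn1 from -1.65 to 0.15. The correlation of Ccn1 with Ccn2 ranged from 0.59 to 0.89 with 1 library left out, that of Acta2 with Tagln from 0.28 to 0.52, and that of Acta2 with Ccn2 from -0.25 to 0.069, and the last was 0.42 with group means taken out. The causes were not tested. The labels state no pairing of same-numbered libraries. For numbers 1, 2 and 5 the library codes of both groups also share a number, whose meaning is not stated. The correlation of the deviations of same-numbered libraries was 0.50, 0.03, 0.01, 0.17 and 0.25 for numbers 1 to 5. Of the 5 numbers 2 matched best with their own. Whether same-numbered libraries share more than a number was not tested. With the block 577 genes were called in place of 630, and Ankrd1 was the 1 called member (-3.32, adjusted p = 0.0444). The block also ended the calls of Vgll4 (0.75, adjusted p = 0.0661) and Skil (-0.90, 0.0666). Depth limits Actg2 and Acta2, with 0 to 6 and 2 to 445 counts per library.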
